A study of Mus musculus with 11 samples.

Results

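The protein kinases that phosphorylate serine/arginine-rich (SR) splicing factors were followed in neural progenitor cells (NPCs) in which *Smg6* had been deleted. The 8 genes, listed by name rather than by a measured value, were the 4 cdc2-like kinases *Clk1*, *Clk2*, *Clk3* and *Clk4*, the SR protein kinases *Srpk1* and *Srpk2*, the dual-specificity kinase *Dyrk1a* and the PRP4 kinase *Prpf4b*. All 8 were found among the 53801 gene identifiers of the count tables. Splicing factors of the SR family choose exons while bound to pre-mRNA, and they work only when the serines of their arginine/serine repeats gain and lose phosphate in turn. SRPKs act mostly in the cytoplasm and send SR proteins into the nucleus, CLKs act in the nucleus and release them from speckles, DYRK1A phosphorylates splicing factors and many other proteins and is dosage-sensitive in brain growth, and PRP4 kinase acts on the assembling spliceosome. Several of these genes, as well as the SR genes themselves, make transcripts with an early stop codon that nonsense-mediated mRNA decay (NMD) removes. SMG6 is the endonuclease that cuts NMD targets near that stop.

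Total RNA was sequenced from cultures of neural stem cells taken from the brains of embryos at E13.5, in 11 libraries of 3 groups. Ctr (3 embryos) was *Smg6* Flox/Flox; RosaCreER tg/+ without treatment. Ctr + 4-OHT (4 embryos) was *Smg6* Flox/Flox; RosaCreER +/+ and received 4-hydroxytamoxifen (4-OHT), which switches on CreER. *Smg6*-iKO (4 embryos) was *Smg6* Flox/Flox; RosaCreER tg/+ and received the same drug. The strain was C57BL/6 mixed with 129SV, and all groups, controls included, carried both floxed *Smg6* alleles. The labels give 1 µM 4-OHT for 3 days, with the cultures analysed 6 days after its start. CreER under the Rosa26 locus is active in most cell types, and each library came from 1 embryo. Embryos SMH_128, SMH_132 and SMH_133 (named as in the labels) gave both a Ctr and a *Smg6*-iKO library. The contrast of *Smg6*-iKO with Ctr therefore shares 3 of its 4 mutant embryos with the control, embryo SMH_127 having no Ctr library, and differs in the drug as well as in the deletion, whereas the contrast with Ctr + 4-OHT shares the drug but differs in CreER and in the embryos. Both contrasts share the *Smg6*-iKO libraries, and each control takes part in 2 of the 3 comparisons.

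The libraries held 26418249 to 33756875 counted reads. *Smg6* totals, at 62.3 to 79.4 CPM (counts scaled to a common library total), include exons outside the floxed part, so they do not measure its loss. In *Smg6*-iKO they were lower than in Ctr of the same embryo by 0.14 to 0.16 on the log2 scale in all 3 embryos, with a log2 fold change of -0.15 in the fit that pairs libraries by embryo (edgeR adjusted p = 0.0430) and of -0.06 against Ctr + 4-OHT (edgeR adjusted p = 0.703). As a reference for size, the NMD-sensitive transcripts *Zfas1*, *Gas5* and *Ifrd1* were read beside the kinases. In *Smg6*-iKO, *Zfas1* reached 361 ± 24.5 CPM, beside 72.3 ± 9.19 CPM in Ctr + 4-OHT (mean ± SD, n = 4 each). Among the marker lists, none of the 10 neural stem cell, 6 neuron, 4 astrocyte, 6 oligodendrocyte lineage or 4 mesenchymal markers was at 0 in any group. The 5 microglia markers stayed at or below 0.611 CPM and the 3 erythroid markers at or below 0.0959 CPM. Mesenchymal markers, at a sum of 268 to 1482 CPM, were highest in *Smg6*-iKO of embryo SMH_127 and in Ctr + 4-OHT of embryo SMH_131. Oligodendrocyte lineage markers summed to 603 to 918 CPM, astrocyte markers to 428 to 516 CPM, and endothelial and mural markers to 12.3 to 34.4 CPM.

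The counts are sums over all annotated transcripts of a gene, which bears on what these kinase genes can show. In the GENCODE M21 annotation of GRCm38, *Clk1* (chromosome 1, 58410189 to 58424066) has 13 transcripts, of which 1 is protein coding, 2 are classed as NMD and 7 as retained intron. *Clk4* (chromosome 11, 51261730 to 51281766) has 14, of which 3 are classed as NMD and 7 as retained intron. *Clk2* (chromosome 3, 89164795 to 89176921) and *Clk3* (chromosome 9, 57750624 to 57765860) have 1 NMD transcript each. So have *Srpk1* (chromosome 17, 28587648 to 28622521) and *Srpk2* (chromosome 5, 23503264 to 23684617). *Prpf4b* (chromosome 13, 34875302 to 34906064) has 3, and *Dyrk1a* (chromosome 16, 94570010 to 94695517) has none. Of the counted exon length, 77.9% lay outside the protein-coding transcript in *Clk1*, 62.2% in *Clk4*, 58.4% in *Clk3*, 56.8% in *Clk2*, 48.2% in *Srpk2*, 47.3% in *Srpk1*, 23.4% in *Dyrk1a* and 6.95% in *Prpf4b*. Reads from a transcript that NMD removes, from one that keeps an intron and from the coding one therefore fall into the same number.

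**Figure D1:**
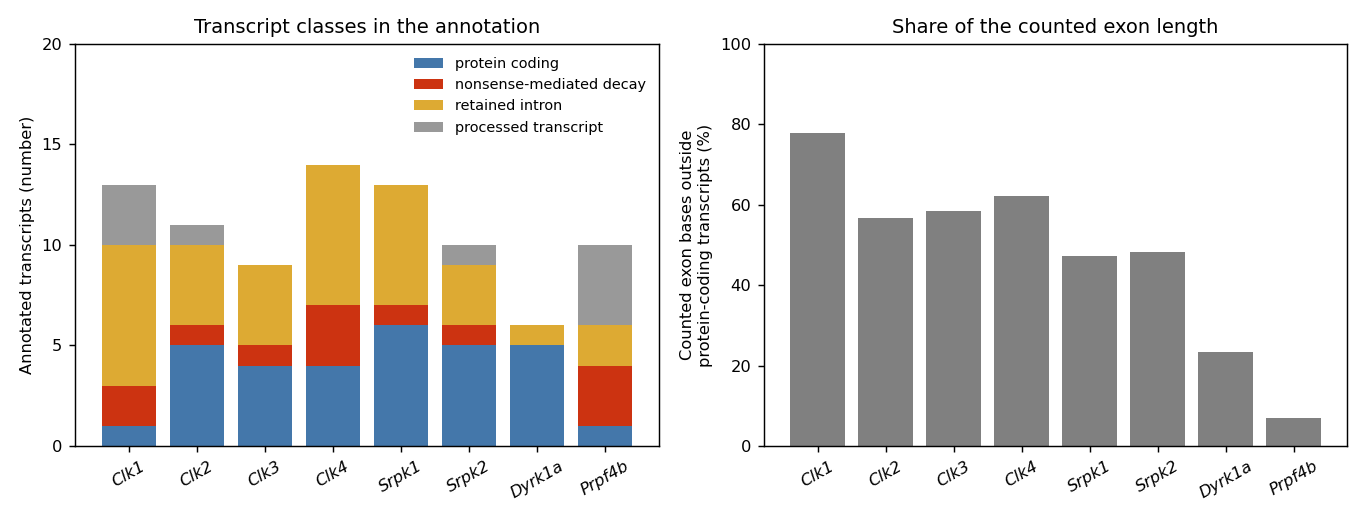
Annotated transcripts of each kinase gene by class (left, number of transcripts, stacked bars) and share of the counted exon bases that lies outside protein-coding transcripts (right, %). The share is 77.9% in *Clk1* and 6.95% in *Prpf4b*, and *Dyrk1a* is the only one of the 8 with no transcript classed as NMD.

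An NMD transcript that leaves out exon 4 of the 13 exons of the coding transcript is annotated in each of the 4 CLK genes. The skipped exon is 91 bases long in *Clk1*, 88 in *Clk2*, 97 in *Clk3* and 91 in *Clk4*, and in each gene its length leaves 1 base after division by 3, so the reading frame shifts where it is left out. The junctions made by leaving out this exon are shown because by them a read could tell such a transcript from the coding transcript. The other annotated transcripts were not searched for these junctions. The last 15 bases of exon 3 are in lower case and the first 15 bases of exon 5 in capitals.
*Clk1* (exon 4 at chr1:58420121-58420211, minus strand): caccattcacacgggATGAAATTGTTGATA
*Clk2* (exon 4 at chr3:89169615-89169702, plus strand): agccgctcatcttcaATGAAATTGTAAGCA
*Clk3* (exon 4 at chr9:57758627-57758723, minus strand): agcagtgcttcctcgATGAGATCGTGGGGA
*Clk4* (exon 4 at chr11:51273078-51273168, plus strand): catcagtcgcattcgATGAAATCGTGGACA

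The stop codon that ends the shifted frame follows close behind this junction in *Clk1* and *Clk2*. The last 30 bases of these annotated frames, and that of the NMD transcript of *Srpk2*, are given with the stop in capitals (NMD transcripts ENSMUST00000148330 of *Clk1*, ENSMUST00000128318 of *Clk2* and ENSMUST00000196929 of *Srpk2*), since SMG6 is known to cut near such stops.
*Clk1*, NMD transcript: tcacacgggatgaaattgttgatacttTAG
*Clk2*, NMD transcript: ttcagccgctcatcttcaatgaaattgTAA
*Srpk2*, NMD transcript: tctgggtctgcagataggaaaaatatcTAA
The stop lay 809 bases before the last exon junction in that of *Clk1*, 818 bases in that of *Clk2* and 1073 bases in that of *Srpk2*. In *Clk4* the annotated stop of both transcripts that skip exon 4 lies upstream of that exon. No count of reads over these junctions was analysed here, so the share of each transcript in the values that follow is not known.

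Per kilobase of counted exon (RPKM), *Prpf4b* was the highest of the 8 genes and *Clk2* the lowest. Over the 11 libraries the mean was 37.1 ± 1.56 RPKM (SD) for *Prpf4b*, 27.6 ± 2.87 for *Clk1*, 17.3 ± 0.875 for *Clk4*, 16.8 ± 1.15 for *Dyrk1a*, 16.0 ± 0.973 for *Clk3*, 12.6 ± 1.07 for *Srpk2*, 11.8 ± 0.885 for *Srpk1* and 9.28 ± 0.424 for *Clk2*. *Prpf4b* lay above *Clk1*, *Clk1* above *Clk4*, *Clk3* above *Srpk2* and *Srpk1* above *Clk2* in all 11 libraries, with no overlap of their ranges. The order of the others was not separated by their spread, since *Clk4* exceeded *Dyrk1a* in 6 of 11 libraries, *Dyrk1a* exceeded *Clk3* in 7 of 11 and *Srpk2* exceeded *Srpk1* in 7 of 11. Each of these pairs was apart in 1 group and overlapped in the other two. *Srpk2* lay above *Srpk1* and *Dyrk1a* above *Clk3* in Ctr, and *Clk4* lay above *Dyrk1a* in *Smg6*-iKO. Since the length in RPKM counts every annotated exon base, the levels of *Clk1* and *Clk4* are divided by many bases outside their coding transcripts.

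**Figure D2:**
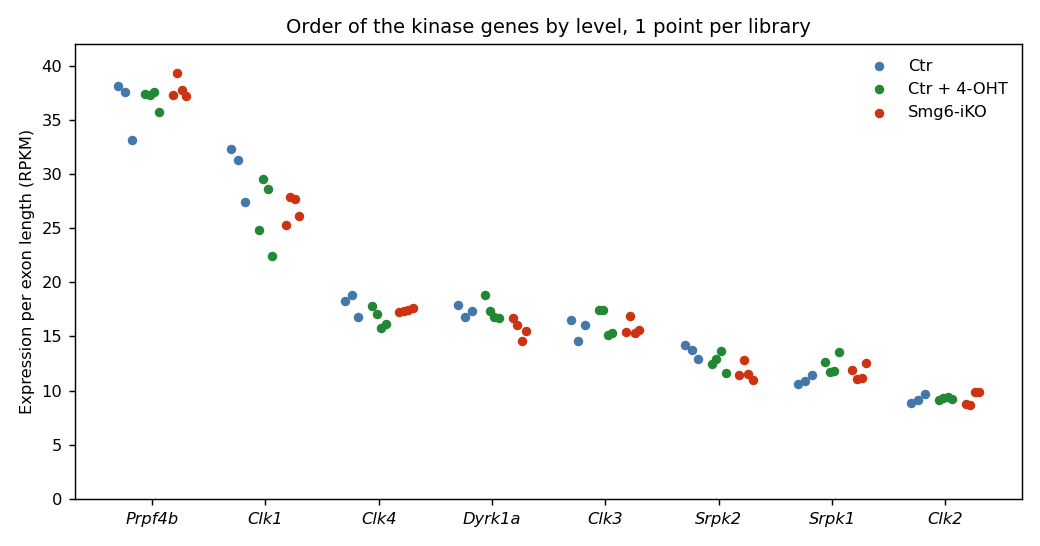
Expression per exon length (RPKM, linear axis from 0) of the 8 kinase genes, ordered by their mean, with 1 point per library and colours for the 3 groups. *Prpf4b* and *Clk1* stand apart from each other and from the 6 lower genes, while *Clk4*, *Dyrk1a* and *Clk3* share one range.

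With 1254 to 10779 reads per gene and library, counting error was between 0.963% and 2.82% of a value. The coefficient of variation over the 11 libraries was larger, from 4.21% in *Prpf4b* to 10.4% in *Clk1*. No 50-base window was shared between the 8 genes, and windows shared with other loci were at most 2.86% of a gene (*Srpk1*). Exons of *Clk3* overlap those of *Edc3* by 1284 bases and exons of *Srpk2* overlap those of *Kmt2e* by 972 bases on the opposite strand, and the counting used strand.

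Between *Smg6*-iKO and Ctr + 4-OHT, none of the 8 kinase genes passed an adjusted p of 0.05 in edgeR's quasi-likelihood test, where 1.17% of all 17558 genes tested did. One of them, *Dyrk1a*, had an unadjusted p under 0.05, as 16.7% of all genes did. Limma-voom and DESeq2 likewise called none of the 8. The log2 fold changes ran from -0.14 to 0.07, with 4 above and 4 below 0 and a median of -0.01 beside 0.01 over all genes. Taken over the 8 genes, the 95% intervals reached from a decrease of 16.9% to an increase of 16.9%, whereas in the same libraries *Zfas1* rose by 2.33 on the log2 scale (standard error 0.094, edgeR adjusted p = 2.02e-06), *Gas5* by 1.27 and *Ifrd1* by 0.65.

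The 4 CLK genes had log2 fold changes from -0.04 to 0.07 in this comparison. *Clk1*, the family member best known for controlling its own splicing, was at 202, 240.1, 233 and 182 CPM in Ctr + 4-OHT (embryos SMH_125, SMH_126, SMH_129 and SMH_131) and at 206, 227, 225 and 212 CPM in *Smg6*-iKO (embryos SMH_127, SMH_128, SMH_132 and SMH_133). All 4 mutant values lay inside the range of the 4 controls, and the log2 fold change was 0.03 (95% interval -0.16 to 0.22, edgeR adjusted p = 0.887). *Clk4*, its closest relative, was at 103, 99.0, 91.3 and 93.8 CPM in Ctr + 4-OHT and at 99.8, 101, 101 and 102 CPM in *Smg6*-iKO. All 4 mutant values lay inside the range of the controls, and the log2 fold change was 0.07 (95% interval -0.04 to 0.19, adjusted p = 0.501 from edgeR). *Clk2* had a log2 fold change of 0.02 (95% interval -0.12 to 0.16) and *Clk3* one of -0.04 (95% interval -0.18 to 0.10). The ratio of *Clk1* to *Clk4* in RPKM, which does not depend on how libraries are scaled, averaged 1.53 in *Smg6*-iKO (SD 0.0701, 4 libraries), 1.58 in Ctr + 4-OHT (SD 0.223, 4 libraries) and 1.69 in Ctr (SD 0.0678, 3 libraries). Within embryos it went from 1.76 in Ctr to 1.60 in *Smg6*-iKO in SMH_128, from 1.66 to 1.58 in SMH_132 and from 1.63 to 1.48 in SMH_133. The 4 *Smg6*-iKO ratios, from 1.47 up, lay below the 3 Ctr ratios and inside the range of Ctr + 4-OHT, from 1.38 to 1.82, and the difference was not tested.

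*Dyrk1a* was the only kinase gene whose *Smg6*-iKO libraries all lay below all Ctr + 4-OHT libraries. It was at 155, 143, 139 and 138 CPM in Ctr + 4-OHT and at 138, 132.1, 120.4 and 128.2 CPM in *Smg6*-iKO. The groups did not overlap, but the highest mutant value, 137.8 CPM in embryo SMH_127, and the lowest control value, 138.2 CPM in embryo SMH_131, were next to each other. Of all genes tested, 5.99% lay lower in *Smg6*-iKO without overlap in this comparison. The log2 fold change was -0.14 (standard error 0.058, 95% interval -0.27 to -0.01) and did not pass the adjustment over all genes (edgeR adjusted p = 0.257, and 0.171 to 0.501 over the alternatives). In Ctr, *Dyrk1a* was at 148, 139 and 143 CPM, so the 4 *Smg6*-iKO libraries lay below all 7 control libraries, as did those of 3.60% of all genes. In bulk RNA, a lower value from fewer cells of one type and from less RNA per cell cannot be told apart.

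Both SRPK genes had estimates below 0 in this comparison and did not pass the test. *Srpk2* was at 174, 180.0, 189.8 and 162 CPM in Ctr + 4-OHT and at 158, 178, 159.9 and 153 CPM in *Smg6*-iKO, with overlapping groups and a log2 fold change of -0.11 (95% interval -0.26 to 0.04, edgeR adjusted p = 0.438). *Srpk1* was at 122, 113, 114 and 131.1 CPM in Ctr + 4-OHT and at 114, 107, 108 and 121 CPM in *Smg6*-iKO, with a log2 fold change of -0.08 (95% interval -0.22 to 0.06, edgeR adjusted p = 0.559). *Prpf4b*, whose NMD transcripts number 3, was at 315, 314, 317 and 301 CPM against 314, 331, 318 and 314 CPM, a log2 fold change of 0.05 (95% interval -0.06 to 0.15, edgeR adjusted p = 0.684). With each library left out in turn none of the 8 was called, and the smaller estimates moved by over 1.5 times. For *Srpk1* they ran from -0.13 (without *Smg6*-iKO of embryo SMH_133) to -0.04 (without Ctr + 4-OHT of embryo SMH_131), and for *Clk4* from 0.04 (without Ctr + 4-OHT of embryo SMH_129) to 0.10. The sign of *Clk1* (-0.04 to 0.09) and of *Clk2* (-0.02 to 0.05) was not stable.

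**Figure D3:**
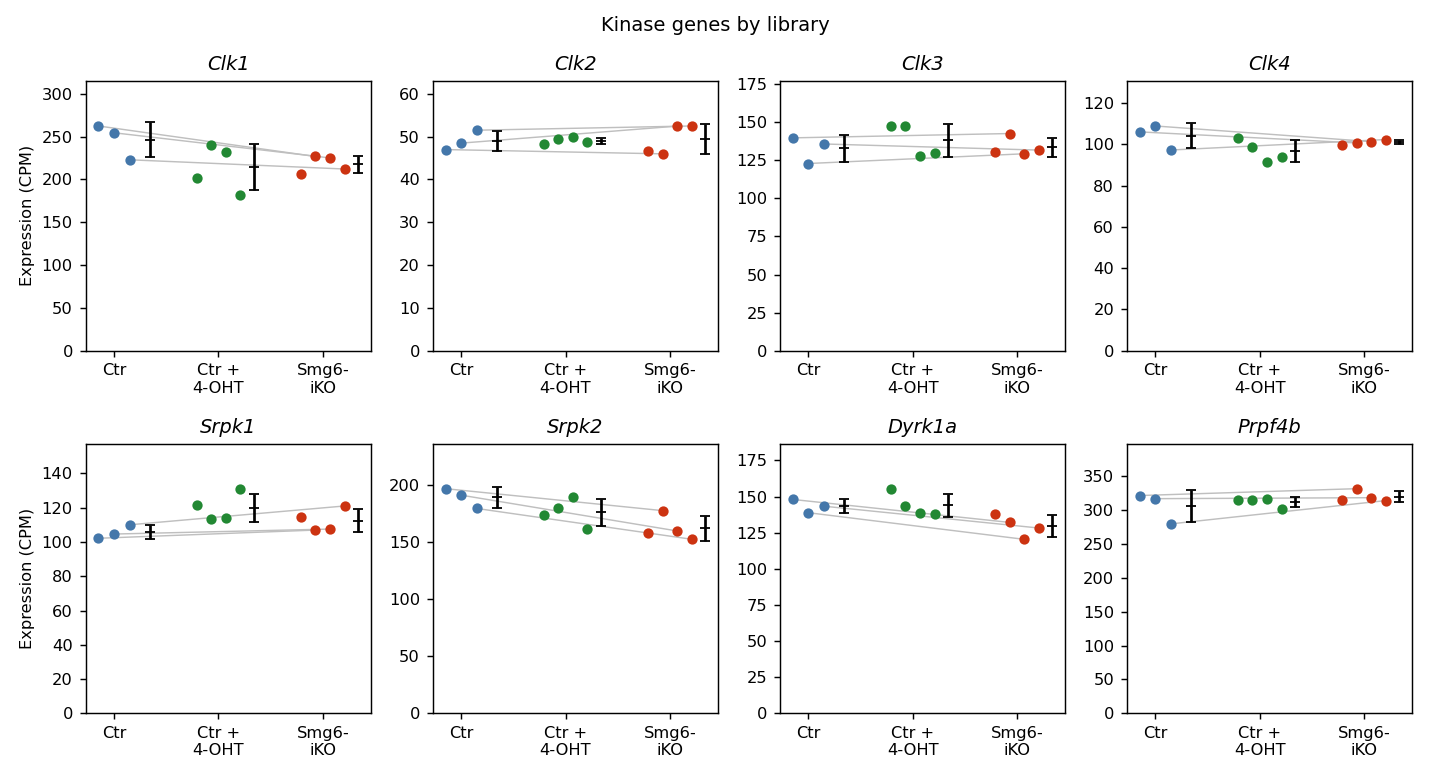
Expression (CPM, linear axis from 0) of the 8 kinase genes in each library of Ctr, Ctr + 4-OHT and *Smg6*-iKO, with the group mean and SD as bars beside the points and grey lines joining libraries of the same embryo. The 4 *Smg6*-iKO points of *Dyrk1a* lie below all 7 control points, and those of *Srpk2* lie below the 3 Ctr points.

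Against Ctr, *Srpk2*, *Dyrk1a* and *Clk1* were the lower genes in *Smg6*-iKO, and in edgeR they passed the test when libraries were paired by embryo. Without the pairing, none of the 8 had an adjusted p under 0.05 in edgeR's quasi-likelihood test, where 9.25% of the 17974 genes tested did. The unadjusted p was under 0.05 for 3 of them, against 26.9% of all genes, and limma-voom and DESeq2 each called 1, *Srpk2*, where they called 8.97% and 16.9% of the genes to which they gave an adjusted p. With the embryo as a block, which the shared animals allow, *Srpk2*, *Dyrk1a* and *Clk1* were called lower and the other 5 were not called. In edgeR the block also raised the calls over all genes to 21.4%, with 11.2% called lower, while in DESeq2 it lowered them from 2421 to 2040 genes. The median log2 fold change of the 8 genes without the block was -0.02 beside 0.01 over all genes.

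*Srpk2* was at 197, 191 and 179.6 CPM in Ctr (embryos SMH_128, SMH_132 and SMH_133) and at 158, 178, 159.9 and 153 CPM in *Smg6*-iKO (embryos SMH_127, SMH_128, SMH_132 and SMH_133). The groups did not overlap, by a margin of 177.7 against 179.6 CPM, and within embryos SMH_128, SMH_132 and SMH_133 *Smg6*-iKO minus Ctr was -0.15, -0.26 and -0.23 on the log2 scale. Without the block the log2 fold change was -0.22 (standard error 0.064, edgeR adjusted p = 0.0529), and with it -0.21 (standard error 0.048, edgeR adjusted p = 0.00445). In the blocked fit it fell by 13.8%. Over all alternatives its adjusted p lay between 3.00e-06 and 0.159 (edgeR, limma-voom or DESeq2). Leaving out *Smg6*-iKO of embryo SMH_128, the mutant library with the highest *Srpk2* value, gave an adjusted p of 0.0122 in edgeR without the block. In the blocked fit, leaving out embryo SMH_133 ended the call (edgeR adjusted p = 0.0942), with a log2 fold change of -0.19 and a standard error of 0.076.

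*Dyrk1a* was lower in *Smg6*-iKO by a similar amount in the 3 embryos. The within-embryo differences were -0.16 in embryo SMH_128, -0.21 in embryo SMH_132 and -0.16 in embryo SMH_133 on the log2 scale, and the groups did not overlap. The log2 fold change was -0.15 without the block (standard error 0.057, edgeR adjusted p = 0.134) and -0.18 with it (standard error 0.046, edgeR adjusted p = 0.0113). Without embryo SMH_133 the blocked call was lost (edgeR adjusted p = 0.151), with a log2 fold change of -0.17.

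*Clk1* was at 262, 254 and 223 CPM in Ctr against 227, 225 and 212 CPM in *Smg6*-iKO of the same embryos, and at 206 CPM in embryo SMH_127. The groups overlapped through Ctr of embryo SMH_133, and the within-embryo differences were -0.21, -0.18 and -0.07 on the log2 scale. The log2 fold change was -0.18 without the block (standard error 0.067, edgeR adjusted p = 0.113) and -0.15 with it (standard error 0.049, edgeR adjusted p = 0.0349). Each embryo left out in turn ended the blocked call of *Clk1*, with edgeR adjusted p of 0.0549 without embryo SMH_128, 0.119 without embryo SMH_132 and 0.115 without embryo SMH_133. The log2 fold changes were then -0.13, -0.14 and -0.18. *Clk1* has 2 annotated NMD transcripts, and the estimates for its total were 0.03 against Ctr + 4-OHT and -0.18 against Ctr.

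The other 5 kinase genes were not called against Ctr with or without the block. *Srpk1* and *Prpf4b* were higher in *Smg6*-iKO in all 3 embryos, by 0.04 to 0.14 and by 0.01 to 0.17 on the log2 scale, with blocked log2 fold changes of 0.08 (95% interval -0.02 to 0.18) and 0.07 (95% interval -0.03 to 0.18). Over all genes, 25.7% were higher and 25.7% lower in all 3 embryos, beside 2 and 3 of the 8 kinase genes. *Clk2*, *Clk3* and *Clk4* went one way in 2 embryos and the other way in 1, with blocked log2 fold changes of 0.04, 0.02 and -0.04. Groups without overlap were found for 2 of the 8 (*Srpk2* and *Dyrk1a*), both lower, against 11.9% of all genes that lay lower without overlap.

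**Figure D4:**
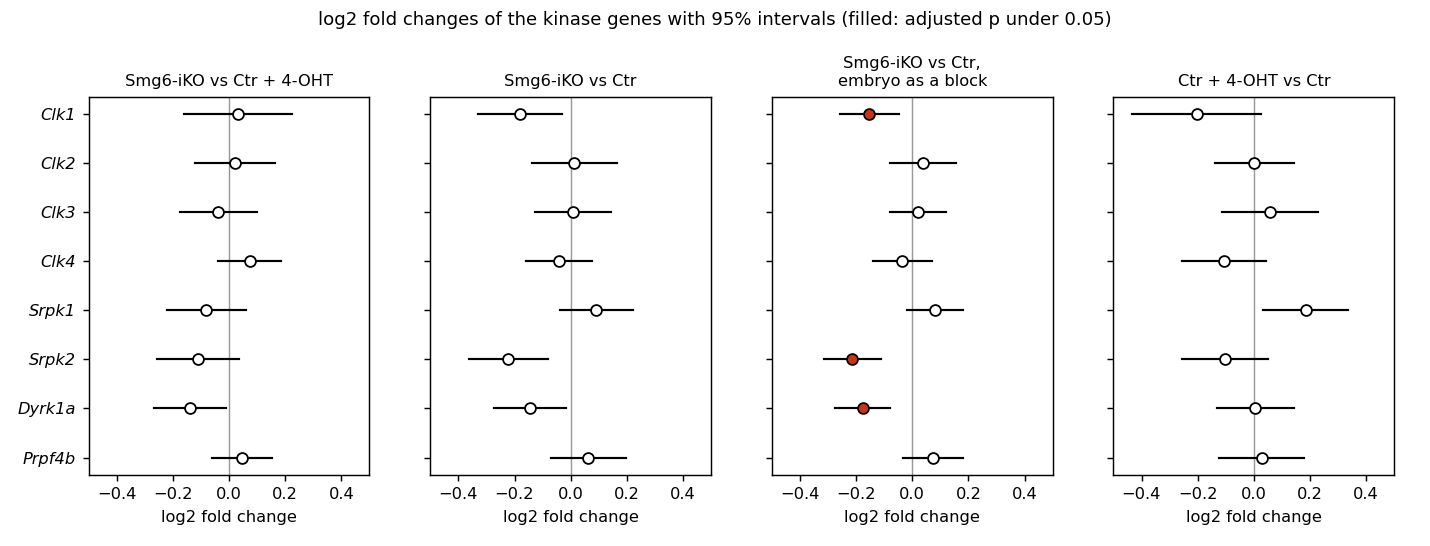
log2 fold changes of the 8 kinase genes (points) with 95% intervals (lines) in the 3 comparisons and in *Smg6*-iKO against Ctr with the embryo as a block; filled points passed an adjusted p of 0.05. Filled points stand only in the blocked panel, at -0.15 for *Clk1*, -0.21 for *Srpk2* and -0.18 for *Dyrk1a*.

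The comparison of the 2 control groups gives the background of drug, CreER genotype and embryo without a deletion. None of the 8 genes was called in edgeR's quasi-likelihood test (0.221% of 17665 genes were), 1 had an unadjusted p under 0.05, against 8.28% of all genes, and limma-voom and DESeq2 called none. *Srpk1* was at 102, 105 and 110.0 CPM in Ctr and at 122, 113, 114 and 131.1 CPM in Ctr + 4-OHT. Its groups did not overlap, with Ctr + 4-OHT higher, as for 3.80% of all genes, and the log2 fold change was 0.18 (95% interval 0.03 to 0.33, edgeR adjusted p = 0.504). *Clk1* had a log2 fold change of -0.20 (95% interval -0.43 to 0.03, edgeR adjusted p = 0.651), and *Srpk2* one of -0.10 (95% interval -0.26 to 0.05, edgeR adjusted p = 0.719). For *Clk1* the estimate between the controls was as large as that of *Smg6*-iKO against Ctr, while for *Dyrk1a* it was 0.01 (95% interval -0.13 to 0.14, edgeR adjusted p = 0.987). Leaving out Ctr + 4-OHT of embryo SMH_131 brought the estimate of *Clk1* to -0.13.

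Part of the variation in these genes ran along with the cell type markers of the cultures. Summed over 10 neural stem cell markers (*Sox2*, *Nes*, *Pax6*, *Vim*, *Fabp7*, *Hes1*, *Hes5*, *Notch1*, *Sox9* and *Prom1*), the level was 5333 to 5578 CPM in Ctr, 4685 to 5799 CPM in Ctr + 4-OHT and 4581 to 5182 CPM in *Smg6*-iKO. Against Ctr, 6 of the 10 were called lower in *Smg6*-iKO by edgeR, beside 4.98% of all genes called lower, with log2 fold changes, for the 5 that moved most, of -1.28 for *Hes5*, a target of Notch signalling, -0.54 for *Prom1*, -0.47 for *Sox2*, -0.45 for *Pax6* and -0.30 for *Notch1*. Of the 4 astrocyte markers, *Gfap* (1.33) was called higher, beside 4.27% of all genes, and the other three, with log2 fold changes from -0.12 to 0.56, were not called. The summed astrocyte markers spanned 436 to 510 CPM in Ctr and 428 to 516 CPM in *Smg6*-iKO. No neuron or oligodendrocyte lineage marker was called without the block. With the embryo as a block, 7 of the 10 stem cell markers and 1 of 5 endothelial and mural markers tested were called lower, beside 11.2% of all genes. Called higher were 3 of 6 neuron, 2 of 4 astrocyte, 4 of 6 oligodendrocyte lineage and 1 of 4 mesenchymal markers, beside 1843 of all 17974 genes. Against Ctr + 4-OHT none of the 35 markers tested was called by edgeR or limma-voom, 4 had an unadjusted p under 0.05, and DESeq2 called 1. *Srpk2* followed the summed stem cell markers over the 11 libraries with Pearson's r = 0.92 and Spearman's rho = 0.90, *Clk1* with r = 0.72 and rho = 0.73, *Srpk1* with r = -0.57 and rho = -0.60, and *Dyrk1a* with r = 0.29 and rho = 0.35. With the summed neuron markers, *Clk1* had r = -0.78, *Srpk2* r = -0.68, *Srpk1* r = 0.63 and *Dyrk1a* r = 0.11. Of the other marker sums, *Clk2* ran opposite to the astrocyte markers (r = -0.85, rho = -0.80), *Clk4* to the oligodendrocyte lineage markers (r = -0.74, rho = -0.63) and *Clk1* to the mesenchymal markers (r = -0.70, rho = -0.70). These values describe libraries that share groups, embryos and scaling. The sums weigh abundant markers most. In Ctr the highest stem cell marker reached 2366 CPM, while *Hes5* averaged 77.4 CPM. The part of cell composition in the lower *Srpk2* and *Clk1* values was not tested.

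**Figure D5:**
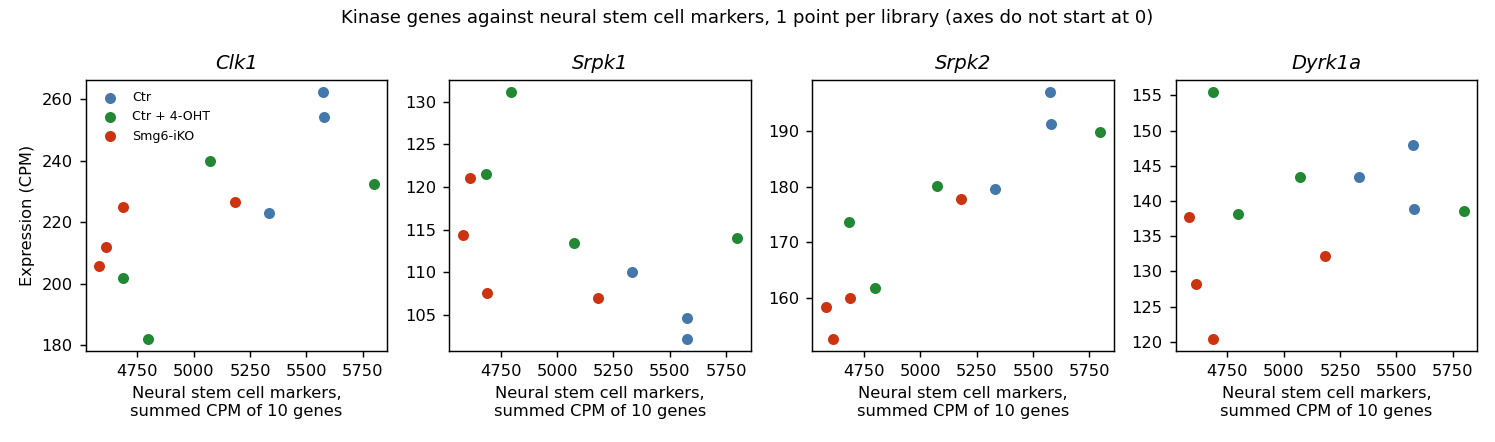
Expression of *Clk1*, *Srpk1*, *Srpk2* and *Dyrk1a* (CPM) against the summed CPM of 10 neural stem cell markers, with 1 point per library in the colours of the 3 groups and axes that do not start at 0. Over the 11 libraries r is 0.92 for *Srpk2* and 0.29 for *Dyrk1a*, whose *Smg6*-iKO points lie below all control points. The marker sums of *Smg6*-iKO, at 4581 to 5182 CPM, lie below those of Ctr, at 5333 to 5578 CPM, and overlap those of Ctr + 4-OHT.

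Among 18123 genes, those closest to *Srpk2* over the 11 libraries were *Prom1*, itself one of the stem cell markers (Pearson's r = 0.99, Spearman's rho = 0.99), *St13* (r = 0.98) and *Npc2* (r = 0.98). Those closest to *Clk1* were *Zxdc*, *Tob1* and *Megf10* (r = 0.97 each), and those closest to *Dyrk1a* were *Nedd9* (r = 0.95), *Clta* (r = 0.94) and *Paip2b* (r = 0.93). *Srpk1* was closest to *Isg20l2* and *Nin* (r = 0.93 each) and to the gene ENSMUSG00000099703 (r = 0.92), *Clk2* to *Ppan* (r = 0.92), *Nup210* and *Cep131* (r = 0.91 each), and *Clk3* to *H2-D1*, *Trim32* (r = 0.91 each) and *Ubxn6* (r = 0.90). *Prpf4b* was closest to *Hykk* (r = 0.92), *Paox* (r = 0.91) and *Guf1* (r = 0.90). The patterns nearest to *Clk4* were those of *1700013F07Rik* (r = 0.89), *Gm37285* (r = 0.85) and *1700081N11Rik* (r = 0.85). Within the kinase genes, *Clk1* and *Srpk1* ran opposite to each other (r = -0.89, rho = -0.85) and *Clk1* and *Srpk2* together (r = 0.75, rho = 0.80). Each named gene holds one of the 3 highest of 18123 values over 11 libraries, so the names are a description only.

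The substrates, partners and relatives of these kinases showed few or no calls in edgeR's separate fits without the block, and more in some other fits. They were listed as 57 genes in 7 groups, of which 56 were tested, with *Dyrk4* below the filter. Against Ctr + 4-OHT none was called by edgeR or by limma-voom, 9 had an unadjusted p under 0.05, as 16.7% of all genes did, and the median log2 fold change was -0.03 beside 0.01 over all genes. With all libraries in one edgeR fit 4 were called (*Cdk12*, *Sf3b1*, *Srsf1* and *Cdk13*), and with upper-quartile normalization or at least 10 counts in every library 1 was (*Cdk12*). Over all genes these fits called 484 of 18123, 223 of 17558 and 222 of 16183. DESeq2 called 6 in that comparison, where it called 6.06% of the 14401 genes to which it gave an adjusted p, with *Cdk12* higher (0.20) and *Sf3b1* (-0.23), *Srsf1* (-0.19), *Ppp2ca* (-0.19), *Cdk13* (-0.18) and *Lin52* (-0.39) lower on the log2 scale. Against Ctr, edgeR called 2 higher and 1 lower of the 56, where it called 9.25% of all genes, with a median of -0.06 beside 0.01. DESeq2 called 5, where it called 16.9% of the genes to which it gave an adjusted p. They were the same 3 and *Srsf1* (-0.14) and *Lin52* (-0.42), both lower. The 3 edgeR calls became 0 without Ctr of embryo SMH_128 or *Smg6*-iKO of embryo SMH_133, and 1 without Ctr of embryo SMH_132 or *Smg6*-iKO of embryo SMH_127 or SMH_132. Between the controls none was called by edgeR, limma-voom or DESeq2, and 1 had an unadjusted p under 0.05, as 8.28% of all genes did.

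The 3 genes called against Ctr were *Srsf6*, *Cdk12* and *Sf3b1*. *Srsf6*, an SR protein that the kinases phosphorylate, was at 193, 201 and 214 CPM in Ctr, at 233, 220.2, 224 and 229.7 CPM in Ctr + 4-OHT and at 240.2, 236, 238 and 244 CPM in *Smg6*-iKO. It rose against Ctr by 0.24 on the log2 scale (standard error 0.053, edgeR adjusted p = 0.0223), but Ctr + 4-OHT lay between. Of the 13 SR and Tra2 genes it was the only one that edgeR called against Ctr. *Cdk12*, a kinase of the RNA polymerase II tail, was at 104.7 to 109 CPM in *Smg6*-iKO, above all 7 controls at 89.5 to 97.3 CPM (2.99% of all genes lay so), with a log2 fold change of 0.23 (standard error 0.052, edgeR adjusted p = 0.0260) against Ctr. *Sf3b1*, a core U2 snRNP protein that DYRK1A phosphorylates, was at 805 to 874 CPM in *Smg6*-iKO, below all controls at 911 to 1004 CPM. It fell against Ctr by 0.25 on the log2 scale (standard error 0.054, edgeR adjusted p = 0.0213).

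With the embryo as a block, 9 of the 56 genes were called against Ctr, 3 higher and 6 lower, a smaller share than the 21.4% of all genes called in that fit. The number was 14, 6 or 4 without embryo SMH_128, SMH_132 or SMH_133, 13 with a gene length correction, 11 in limma-voom and 6 in DESeq2. Over all genes these fits called 5164 of 18393, 2644 of 18106, 1742 of 18103, 3714 of 17974, 3836 of 17974 and 2040 of 12917. Beside the 3 above, *Luc7l*, which binds U1 snRNP, was higher by 0.14 on the log2 scale. *Srrm1* (-0.15), a splicing coactivator rich in SR repeats, *Ppp2ca* (-0.14), the catalytic subunit of a phosphatase, and *Cdk13* (-0.14), the relative of *Cdk12*, were lower. So were 2 more partners or substrates of DYRK1A, *Lin52* (-0.38), a subunit of the DREAM complex, and *Nfatc4* (-0.61), a transcription factor held out of the nucleus by phosphorylation. Without the block *Nfatc4* had a log2 fold change of -0.40 (edgeR adjusted p = 0.162), and its groups overlapped, at 9.84 to 18.3 CPM in *Smg6*-iKO and 15.6 to 18.8 CPM in Ctr. None of these 6 genes was called against Ctr by edgeR without the block, and the groups of *Srrm1* and *Lin52* overlapped as well. With *Sf3b1*, 3 of the 8 genes of the DYRK1A list were called lower, beside 11.2% of all genes. None of the 8 tested relatives, *Srpk3*, *Dyrk1b*, *Dyrk2*, *Dyrk3*, *Hipk1*, *Hipk2*, *Hipk3* and *Hipk4*, was called by edgeR, limma-voom or DESeq2 in any comparison, none had an unadjusted p under 0.05 without the block, and none was called with it. Neither of the 2 listed PRP4 kinase substrates was called.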

How the data were processed

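The authors depleted ribosomal RNA, aligned reads with STAR against GRCm38, and featureCounts assigned them to Ensembl genes by strand (per the labels: STAR 2.5.4b, featureCounts 1.5.0 with strand setting 2, Ensembl release 92). They deposited whole-number counts per gene and library without normalization. The 8 kinase genes and all gene lists were chosen with earlier results of these data known. Symbols, positions and transcript sequences came from GENCODE M21 on GRCm38 (53620 of 53801 identifiers had a symbol).

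Each comparison was fitted on its own groups in R 4.3.3 with edgeR 4.0.16 (filterByExpr, TMM, quasi-likelihood test, Benjamini-Hochberg adjustment over all genes, adjusted p under 0.05). Standard errors are the log2 fold change over the square root of F. CPM and RPKM were scaled by TMM over the 11 libraries, with a prior count of 2 for log2 CPM, and the RPKM used the exon length in the count files. Same-embryo libraries deviated together (mean r across genes 0.384, lowest 0.328, 3 pairs) and others did not (mean r = -0.128, 9 pairs), so the embryo number pairs animals. Other genes were named when edgeR called them in a contrast of Smg6-iKO, up to 5 per list and contrast, or were among the 3 most similar patterns. The genes named from the blocked fit or from DESeq2 alone were added after their values were seen. Alternatives were DESeq2's size factors, upper-quartile normalization, no filter, one fit over the 11 libraries, at least 10 counts in every library, limma-voom (limma 3.58.1), DESeq2 1.42.0, a gene length correction (loess span 0.3), the embryo as a block and each library left out. Added after the data were seen were the block in DESeq2 and limma-voom, the block without each embryo, and the fit without the 2 libraries richest in mesenchymal markers. Only edgeR's quasi-likelihood test without the block was run on simulated counts with known changes. Its pass mark for recovery covered only changes larger than those of the kinase genes. The block, limma-voom and DESeq2 were not tested in this way. No pair of libraries of a group was a duplicate (chi-square per gene 11.0 to 43.0). Without the block, p-values cover the spread between embryos and counting error, and libraries of a shared embryo are treated as independent. With the block, they cover the spread of the differences within the 3 shared embryos and counting error. Embryo SMH_127, without a Ctr library, then adds nothing to the estimate. Depth was 26418249 to 33756875 counted reads.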

Additional observations from a re-analysis of the deposited data

How the results depend on the processing

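No kinase gene passed the threshold against Ctr + 4-OHT or between the controls under any alternative. Of 448 alternative log2 fold changes, 423 kept their sign, and those whose sign turned were at most 0.0633 in size. Against Ctr, the number of the 8 called moved from 0 to 1 with no filter on low counts, limma-voom, DESeq2 or the length correction, each time *Srpk2* (edgeR, limma-voom or DESeq2 adjusted p from 0.0119 to 0.0499), and to 3 with the embryo as a replicate block, alone, with the length correction, in DESeq2 or in limma-voom. In the block without one embryo it was 2 (without SMH_128 or SMH_132) or 0 (without SMH_133). With each library left out it was 0 to 1, and 0 in the other comparisons.

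The number of all genes called against Ctr + 4-OHT moved from 206 to 418 with no filter, 484 with all libraries in one fit, 873 with DESeq2, 42 without *Smg6*-iKO of SMH_127 and Ctr + 4-OHT of SMH_131, and 66 to 174 with each library left out. Against Ctr it moved from 1663 to 2714 with no filter, 796 with all libraries in one fit, 843 without *Smg6*-iKO of SMH_127, 3854 with the block, 3714 with block and length correction, 3836 with the block in limma-voom, 2040 with the block in DESeq2 (2421 without it), 5164, 2644 or 1742 in the block without embryo SMH_128, SMH_132 or SMH_133, and 570 to 2524 with each library left out. It was split into 767 higher and 896 lower, and into 1089 and 694 with upper-quartile normalization. Between the controls it moved from 39 to 198 with no filter, 60 with all libraries in one fit, 169 with DESeq2, 23 without Ctr + 4-OHT of SMH_131, and 5 to 54 with each library left out. The cause of these moves was not tested. The blocked calls rest on 3 embryos, gene totals cannot separate transcripts, and changes under the widths of the intervals given could not be seen.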
